A study of Mus musculus with 3 samples.

Results

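Keratocytes are the resident fibroblasts of the corneal stroma, and they build and maintain its transparent collagen. They secrete type I collagen heterotypically assembled with type V, together with the small leucine-rich proteoglycans keratocan, lumican and decorin, which hold the fibrils at an even spacing. When the cornea is injured or inflamed they can turn into repair fibroblasts, which make matrix proteases, acute-phase proteins and chemokines. The barcodes described here were chosen for high content of such keratocyte transcripts and are called marker-rich barcodes below.

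A barcode was a member if it held UMIs (unique molecular identifiers, 1 per captured RNA molecule) of at least 8 of 15 stromal genes. In addition, the summed share of these genes among its UMIs had to be at least 2.5 times their share over all barcodes of the same library. At least 500 genes and at most 5% mitochondrial UMIs were also required. The rule selected 5139 of 317975 barcodes. Members were thus chosen by their measured levels of the 15 genes, so these levels are a description and no finding.

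Nuclei were isolated from whole, snap-frozen mouse corneas. Each library pooled 5 mice, whose age the labels give as 7 weeks, so the spread between animals cannot be seen. The 3 groups, 1 library each, were untreated wild-type mice (WT), untreated knockouts (KO) and knockouts that received PBS, a buffered salt solution, over 14 days (KO_PBS). The series text names the knocked-out gene as Aire, a transcription regulator of the thymus whose loss leads to autoimmunity, the eye included. The series text differs from the labels in age (6 weeks) and treatment time (day 7), and its lacripep-treated group was not analysed here. Because each group is a single library, no difference has a replicate check or a test, and genotype, treatment and library cannot be told apart.

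Depth was 256852883 UMIs over 96587 barcodes (WT), 352627863 over 107031 (KO) and 178988562 over 114357 (KO_PBS). Between 2833 and 3379 barcode sequences occurred in both libraries of a pair. Among them were sequences of 84 WT members in KO and 96 in KO_PBS, and of 40 KO members in WT and 65 in KO_PBS. For KO_PBS members it was 6 in each of the others. At most 1 sequence per pair was a member in both libraries. Aire itself had 0, 2 and 0 UMIs in the members of WT, KO and KO_PBS, too few to check the labels.

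Of the 96547 WT barcodes within the gene and mitochondrial limits, 3022 met the rule, 3.13% (exact Clopper-Pearson 95% interval 3.02 to 3.24, counting error only, as for all intervals below). The KO library gave 1937 of 107025 (1.81%, 1.73 to 1.89) and the KO_PBS library 180 of 111899 (0.161%, 0.138 to 0.186). These shares are not shares of a cell type, because the required share was set by each library. That share was 0.171% of all UMIs for WT, 0.532% for KO and 0.328% for KO_PBS, which put the requirement at 0.427%, 1.33% and 0.820%. Members in WT stood further above that background than members in the other libraries, with a median of 4.60 times the library share against 2.91 in KO and 2.79 in KO_PBS. A level of at least 4 times was reached by 1840 members in WT, 185 in KO and 12 in KO_PBS.

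Median UMIs per member were 3071 (WT), 2844 (KO) and 1710 (KO_PBS), against 2262, 2980 and 1446 over all barcodes within the gene and mitochondrial limits. All 15 rule genes were found together in 31 members in WT, 64 in KO and 0 in KO_PBS. Summed over members, the UMIs on genes shared by the 3 gene lists came to 11665473, 6064705 and 341220, so 3 UMIs equal 0.257, 0.495 and 8.79 CPM (UMIs per 1000000). Levels below are such sums scaled to CPM, and they rest on far fewer molecules in KO_PBS. The libraries also differed in AY036118, a non-coding transcript, at 32265 CPM in WT members, 20336 in KO and 381 in KO_PBS, and at 36054, 19392 and 512 in the other barcodes.

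In all 3 libraries the marker-rich barcodes held more of each of the 6 keratocyte label markers than the other barcodes (the rule acts on the sum of the 15 genes). Keratocan (Kera, ENSMUSG00000019932), a keratan sulfate proteoglycan of the cornea, was at 349 CPM in WT members, 549 in KO and 123 in KO_PBS, against 34.0, 149 and 32.8 in the other barcodes. Lumican (Lum), a related proteoglycan, was at 487, 1078 and 563 CPM, against 75.6, 373 and 155. Decorin (Dcn), which binds collagen fibrils, was at 1936, 2648 and 2157 CPM, against 347, 922 and 839. The fold over the other barcodes was thus largest in WT for these proteoglycans, at 10.3 for Kera, 6.44 for Lum and 5.59 for Dcn. Such folds of rule genes depend on the share each library required. Most KO_PBS members held no Kera UMI. Without thinning, Kera was found in 63.1% of WT members, 74.7% of KO members and 21.7% of KO_PBS members. With members thinned to an equal number of UMIs, as below, the shares were 38.2%, 52.0% and 12.6%. Lum was then found in 51.1%, 78.5% and 57.5% of members, and Dcn in 89.6%, 97.2% and 96.1%.

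For the collagens of the rule the fold over other barcodes was also largest in WT, with the same limit. Col1a1, which encodes the main chain of fibrillar type I collagen, was at 1270 CPM in WT members, 3182 in KO and 1237 in KO_PBS, against 167, 888 and 428 in other barcodes. Col5a1, a chain of the type V collagen that limits fibril width, was at 192, 333 and 176 CPM, against 22.1, 93.2 and 41.4. Col6a1, of the beaded-filament type VI collagen, was at 476, 585 and 363 CPM, against 49.7, 161 and 84.4. Col6a1 thus exceeded the other barcodes by 9.58 times in WT, 3.63 times in KO and 4.31 times in KO_PBS.

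Angptl7, a secreted protein made by keratocytes, had its highest level in WT, unlike the genes above. It was at 560 CPM in WT members, 361 in KO and 390 in KO_PBS, against 65.6, 115 and 68.3. Fbn1, encoding the microfibril protein fibrillin-1, was at 28.9, 109 and 331 CPM, highest in KO_PBS, against 10.4, 42.9 and 80.3 in other barcodes. The remaining rule genes were Col1a2, Col5a2, Col6a2, Col6a3, Col12a1, Ogn (osteoglycin) and A2m (the protease inhibitor alpha-2-macroglobulin). Each of them was also higher in members than in other barcodes of every library.

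**Figure D1:**
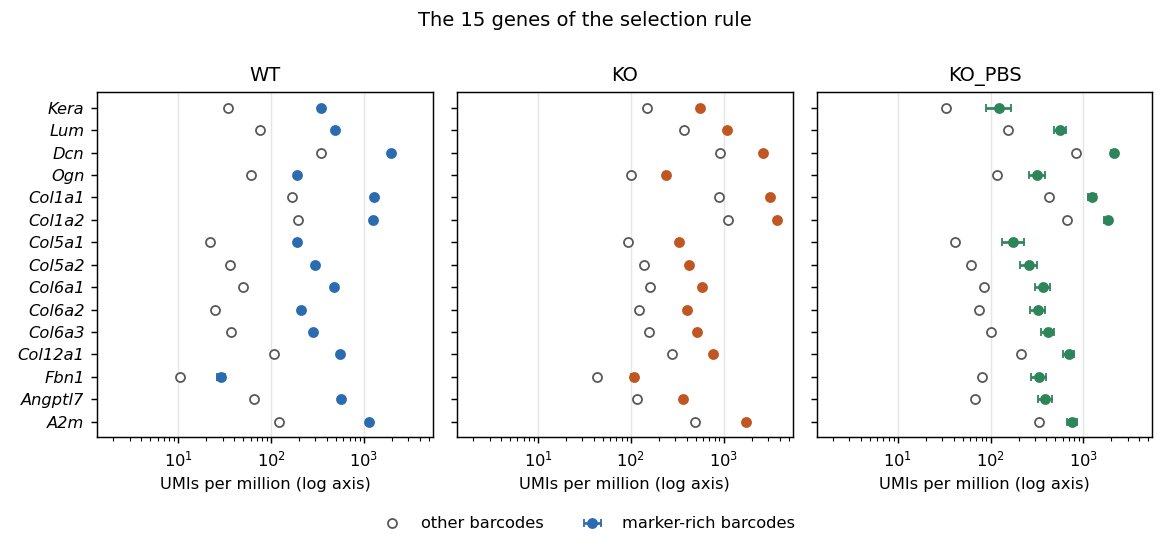
CPM (log axis) of the 15 rule genes in marker-rich barcodes (filled, bars are exact 95% Poisson intervals of the summed count) and in the other barcodes (open) of each library. Every filled point lies right of its open point, for genes whose sum the rule used, and the gap for Kera narrows from 10.3 times in WT to 3.68 times in KO. These gaps depend on the share each library required.

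The label was checked against markers of other corneal cells. Krt12, the keratin of corneal epithelium, was at 23878 CPM in WT members, 12093 in KO and 5375 in KO_PBS, against 26228, 13823 and 6200 in the other barcodes. Thinned to 1500 UMIs, every member deep enough for it (2967 in WT, 1902 in KO and 127 in KO_PBS) had at least 1 Krt12 UMI, as did 100%, 100% and 99.9% of other barcodes. The summed epithelial list (10 genes) stood at 0.909, 0.875 and 0.857 times its level in the other barcodes. The epithelial signal of the marker-rich barcodes was thus close to that of the other barcodes, so they are called by their markers and not keratocytes.

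Several other cell type lists stood above the other barcodes in WT members. Summed vascular markers were at 1.61 (WT), 1.11 (KO) and 1.06 (KO_PBS) times the other barcodes, and corneal endothelium markers 1.40, 1.12 and 1.01 times. Scleral and limbal fibroblast markers were at 1.43, 1.33 and 1.80 times. Their median folds per gene (at least 20 UMIs) were larger in WT and KO_PBS, at 2.05 (WT), 1.29 (KO) and 2.48 (KO_PBS). For collagens outside the rule these medians were 2.18, 1.56 and 1.62. Macrophage markers were at 1.66, 1.06 and 1.05 times. Summed macrophage markers (8 genes, such as Ptprc, the pan-leukocyte CD45, and C1qa) were at 151 CPM in WT members, 1444 in KO and 1380 in KO_PBS, against 90.5, 1359 and 1314 in other barcodes. Melanocyte markers (5 genes) were at 472, 139 and 3827 CPM, against 482, 139 and 4110. Lens markers (8 genes) were at 471, 193 and 6403 CPM, against 491, 194 and 7370, and photoreceptor markers (5 genes) at 91.3, 41.4 and 1544, against 105, 39.0 and 1659. The lens, melanocyte and photoreceptor signal was thus far higher in KO_PBS than in the other libraries, in members and in other barcodes alike, and its part in the results was not tested. Every marker of the macrophage, melanocyte, lens and photoreceptor lists had UMIs in the members of each library.

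Genes outside the rule were also higher in members. Ranked by their smallest fold over the 3 libraries, the first 12 were Bgn, Col3a1, Dkk2, Erbb4, Fmod, Fstl1, Igfbp6, Itgbl1, Ltbp1, Mgp, Serpinf1 and Sparc. For context, among non-rule genes with at least 20 UMIs, 11.6% of 13248 (WT), 4.24% of 12307 (KO) and 10.3% of 3449 (KO_PBS) stood at 1.5 times the other barcodes or more. Biglycan (Bgn), a small leucine-rich proteoglycan, was at 145 CPM in WT members, 637 in KO and 721 in KO_PBS, against 37.9, 280 and 270. Sparc, a collagen-binding matricellular protein, was at 777, 1533 and 1266 CPM, against 210, 673 and 663. Serpinf1, which encodes the antiangiogenic factor PEDF, was at 345, 422 and 270 CPM, against 75.3, 161 and 139. Erbb4 overlaps a gene that only the WT and KO lists contain, so its level in KO_PBS, 173 CPM against 73.6 in WT and 72.6 in KO, is uncertain.

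Counted by role, the enrichment covered most matrix lists. Of the non-rule collagens with at least 20 UMIs, 13 of 13 for WT, 12 of 12 for KO and 7 of 7 for KO_PBS were above the other barcodes. Over all non-rule genes with at least 20 UMIs the share above was 71.3% (WT), 48.8% (KO) and 60.8% (KO_PBS). For genes of collagen processing, such as the lysyl and prolyl hydroxylases, the counts were 19 of 19, 17 of 19 and 6 of 6. For non-rule proteoglycans they were 9 of 9, 8 of 8 and 3 of 3. Genes of the interferon response and antigen presentation gave 17 of 33, 18 of 40 and 24 of 36, with median folds over the other barcodes of 1.04, 0.982 and 1.11. Matrix genes were thus mostly above the other barcodes, and interferon genes lay on both sides of them.

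Of 6 enzymes that accumulate in the cornea as soluble crystallins, 3 (WT), 2 (KO) and 3 (KO_PBS) stood above their level in the other barcodes. Aldh1a1, an aldehyde dehydrogenase, was above in all 3, at 60.3 CPM in WT members, 69.9 in KO and 111 in KO_PBS, against 40.0, 53.1 and 80.2. Aldh3a1 was at 5369, 6590 and 6676 CPM, against 5780, 7168 and 7726. Tkt (transketolase) was at 6165, 3784 and 3616 CPM, against 6569, 4193 and 4238. Both of the latter are abundant in corneal epithelium as well.

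Members varied in how far they stood above their library. In WT, from the 471 members at 2.5 to 3 times the library share to the 326 at 10 times or above, Sparc went from 474 to 1780 CPM. The summed non-rule genes of collagen processing went from 892 to 2787 CPM over the same range, while Krt12 went from 24839 to 20337 CPM. The interferon and presentation list stayed between 2046 and 2176 CPM. In KO, from the 1100 members at 2.5 to 3 times to the 21 at 6 to 10 times, Sparc went from 1355 to 4297 CPM and Krt12 from 12313 to 9077 CPM.

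**Figure D2:**
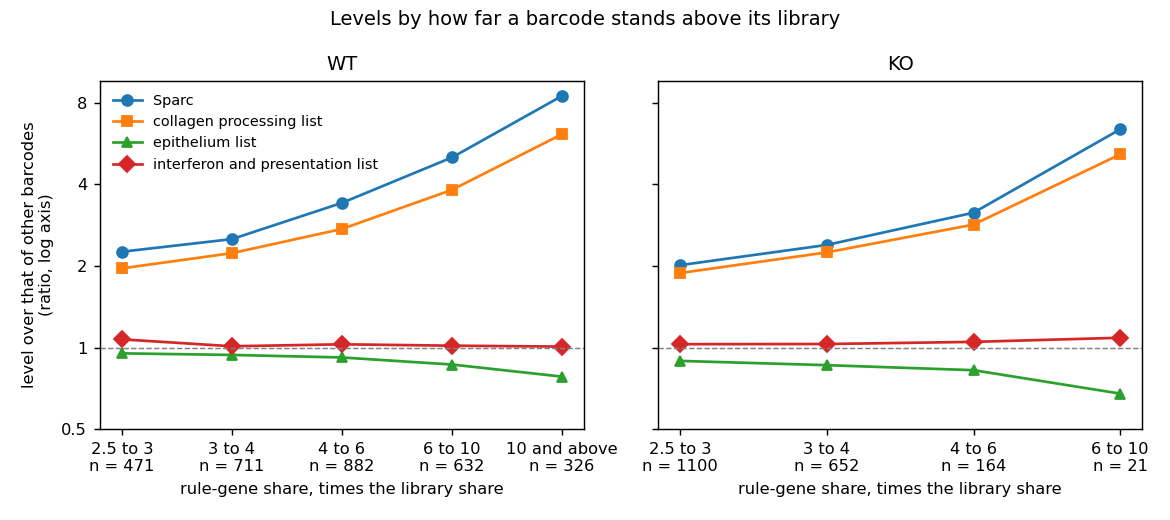
Ratio (log axis) of the level in marker-rich barcodes to the level in the other barcodes of the same library, by range of the rule-gene share. Sparc and the collagen processing list increase across the ranges in both libraries, the epithelium list decreases, and the interferon and presentation list lies near 1.

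The threshold cut through a continuous range. In WT, the 245 barcodes just below 2.5 times had Sparc at 459 CPM, and the 226 members just above it had 446 CPM. For KO the values were 1224 CPM in 1128 barcodes below and 1312 CPM in 673 members above. For KO_PBS they were 846 CPM in 132 barcodes and 929 CPM in 84 members. Members with exactly 8 rule genes numbered 730 (WT), 101 (KO) and 97 (KO_PBS), and 826, 45 and 160 barcodes missed the rule with 7 genes. Sparc was thus close on both sides of the share threshold, but other genes were not always: Saa3 in KO was at 1549 CPM with 7 genes and 2422 with 8, and Serpinf1 in KO_PBS at 165 CPM below 2.5 times and 281 above.

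Differences between libraries were counted by a rule of size. A gene counted as higher or lower if it had at least 50 UMIs in the members of both libraries together, a ratio of at least 2 (counts below 3 set to 3) and 95% Poisson intervals lying apart. No test is involved. The comparisons share libraries, KO in the first and second below, and the members' own values are given side by side.

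In KO members against WT members 30 of 34 tested genes of fibroblast inflammation, 38 of 40 interferon and presentation genes and 13 of 22 proteases and inhibitors were higher. Of 12511 genes, 1851 (14.8%) were higher and 410 (3.28%) lower, with a median log2 ratio of 0.24 in members and 0.38 in other barcodes. Of the 1851 higher genes, 1740 (94.0%) were at least 2-fold higher in the other barcodes too, and 557 (30.1%) had the larger ratio in members. After each gene's ratio in other barcodes was subtracted on the log2 scale, 2 genes were higher by the same rule, Saa3 and Gpx3 (a secreted glutathione peroxidase, named after its values were seen, at 4.29 CPM in WT and 10.9 in KO members), and 199 were lower. Most genes higher in KO members were thus higher in the rest of that library too. The 199 lower genes included rule genes such as Kera and Col1a1, whose level is bound by the selection, and its part in the others was not tested. With ratios centred on their median, 1248 genes were higher and 843 lower.

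**Figure D3:**
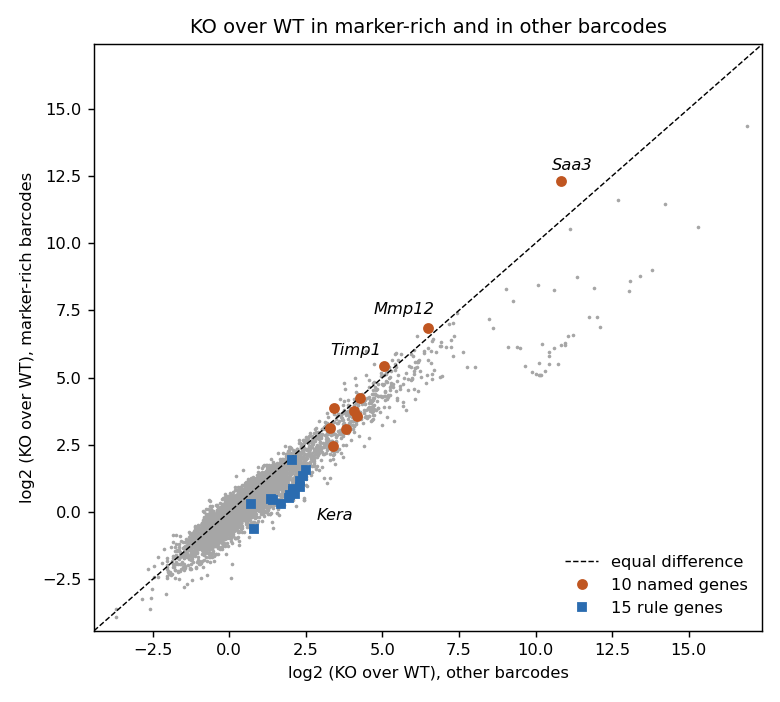
Log2 ratio of KO over WT in the other barcodes (horizontal axis) and in marker-rich barcodes (vertical axis) for the genes with at least 50 UMIs over members of both libraries, with the dashed line at equal ratios. Most genes lie along the line, Saa3 lies above it, and the 15 rule genes, whose level depends on the share each library required, lie below it.

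Saa3 (ENSMUSG00000040026, chromosome 7, 46711998 to 46715700, minus strand, mm10), which encodes the acute-phase protein serum amyloid A3, had the largest ratio of the named genes. WT members held 7 UMIs of it, 0.60 CPM (0.241 to 1.24), and KO members held 18656, 3076 CPM (3032 to 3121). KO_PBS members held 20 UMIs, 58.6 CPM (35.8 to 90.5). Other barcodes had 0.655, 1196 and 58.3 CPM. Saa3 was thus 2.57 times as high in KO members as in other KO barcodes, and at the level of the library in WT and KO_PBS. Within KO members it did not rise steadily with the rule-gene share. It was at 2759 CPM at 2.5 to 3 times the library share, 3724 at 3 to 4 and 2943 at 4 to 6. In the 21 members at 6 to 10 times it was at 1393 CPM.

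Among the named genes were also matrix proteases and an inhibitor of them. Stromelysin-1 (Mmp3, ENSMUSG00000043613, chromosome 9, 7445822 to 7455975, plus strand) was at 209 CPM in WT members, 2461 in KO and 179 in KO_PBS, against 59.3, 1068 and 105 in other barcodes. Macrophage elastase (Mmp12, ENSMUSG00000049723, chromosome 9, 7344381 to 7369499, plus strand) was at 0.857, 98.3 and 8.79 CPM, the last from 3 UMIs. Timp1, an inhibitor of such proteases, was at 3.77, 164 and 41.0 CPM, against 1.93, 64.3 and 17.6. Lox, the lysyl oxidase that crosslinks collagen, was at 14.1, 118 and 32.2 CPM, against 3.00, 41.8 and 15.8. Each of the 4 was highest in KO members and lower in KO_PBS members than in KO members.

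The other genes named for this comparison were Serpina3n, Lcn2, Chil1, Tnc and Steap4. Serpina3n, a serine protease inhibitor with close paralogs whose reads could be split, was at 5.83 CPM in WT members, 109 in KO and 138 in KO_PBS. Lcn2 (lipocalin-2, which binds bacterial siderophores) was at 9.34, 135 and 35.2 CPM. Chil1, a chitinase-like secreted protein, was at 26.4, 356 and 229 CPM. Tnc (tenascin C, a matrix protein of wound edges) was at 7.80, 68.8 and 20.5 CPM. Steap4, a metalloreductase, was at 22.5, 124 and 41.0 CPM. For Chil1, Mmp3, Lox, Serpina3n, Steap4 and Tnc the KO over WT ratio was smaller in members than in other barcodes. None of the 410 lower genes reached both 50 CPM in WT members and 1.5 times the other barcodes, mitochondrial, ribosomal protein and immunoglobulin genes aside.

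**Figure D4:**
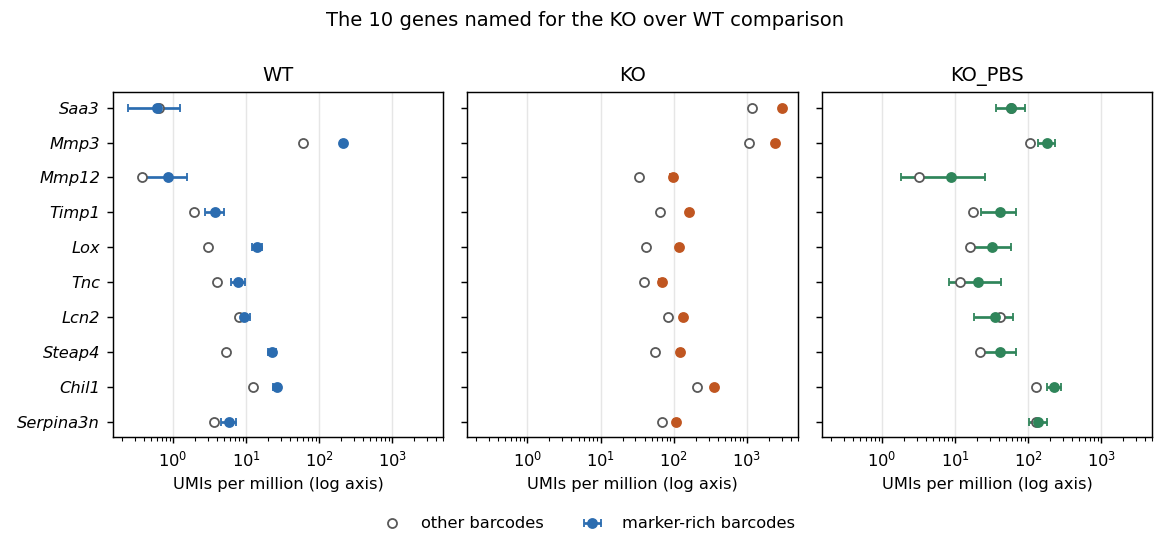
CPM (log axis) of the 10 genes named for KO over WT, in marker-rich barcodes (filled, exact 95% Poisson intervals) and other barcodes (open) of each library. In KO all 10 filled points lie right of the open points, which the naming of these genes required, and Saa3 lies on the open point in WT and KO_PBS.

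Promoter sequence is shown for Saa3, Mmp3 and Mmp12, an acute-phase gene and a pair of proteases, because all of them were higher in KO members. The 250 bases before the start are given 5′ to 3′ (RefSeq, GRCm38.p6), with matches to TGANTCA (AP-1 type) or TTGCNNAA (C/EBP type), searched on both strands, in capitals. The Saa3 bases are chr7:46715677-46715926 on the minus strand, those of Mmp3 chr9:7445572-7445821 and those of Mmp12 chr9:7347124-7347373 on the plus strand, the second of 2 listed Mmp12 starts.
Saa3: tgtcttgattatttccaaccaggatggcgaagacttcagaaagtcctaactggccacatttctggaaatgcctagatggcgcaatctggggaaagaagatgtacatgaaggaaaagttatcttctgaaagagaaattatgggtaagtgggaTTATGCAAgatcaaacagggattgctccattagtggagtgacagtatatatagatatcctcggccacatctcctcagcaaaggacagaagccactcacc
Mmp3: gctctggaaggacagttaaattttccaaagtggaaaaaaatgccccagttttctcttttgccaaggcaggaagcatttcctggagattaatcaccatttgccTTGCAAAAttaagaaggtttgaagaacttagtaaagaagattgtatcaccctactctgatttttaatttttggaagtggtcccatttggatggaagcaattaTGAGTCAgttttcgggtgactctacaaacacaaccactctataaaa
Mmp12: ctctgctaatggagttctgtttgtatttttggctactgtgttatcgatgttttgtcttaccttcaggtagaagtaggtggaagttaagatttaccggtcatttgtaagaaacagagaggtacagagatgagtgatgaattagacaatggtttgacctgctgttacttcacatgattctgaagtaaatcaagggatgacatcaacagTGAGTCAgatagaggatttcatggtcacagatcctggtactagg
TTGCNNAA was found in the 300-base windows of 5 of the 9 named genes in the table (a gene with more than 1 listed start, Mmp12 or Tnc, counts if any of its windows matches, whereas the background is per window), namely Lcn2, Mmp12 (other start), Mmp3, Saa3 and Steap4, and in 10.8% of 32851 windows in the table. TGANTCA was found in Mmp3 and Mmp12, 2 of the 9, and in 7.81% of the windows. Of the 4 other motifs searched, TATAAA was found in 4 of 9, GGGANNTCC in 1, GGAANTCCC in 0 and a loose NF-kappaB pattern in 7. They occur in 13.6%, 4.30%, 1.68% and 50.8% of windows. A match is a run of letters and not a site of binding. Lox was not in the table.

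Among genes of fibroblast inflammation 0 were lower, with a median log2 ratio of 2.67 in members, 3.39 in other barcodes and 0.24 over all genes tested in members. Examples were Saa3, Ccl8 (a monocyte chemokine, 6.34 CPM in WT members, 502 in KO, 261 in KO_PBS), Ccl5 (a T cell chemokine, 1.63, 211 and 164 CPM) and Slpi (a leukocyte protease inhibitor, 8.66, 2995 and 11.7 CPM, against 3949 CPM in other KO barcodes). The interferon and presentation genes, 0 of them lower, had a median of 3.67 in members and 3.73 in other barcodes. Cxcl9, an interferon-induced chemokine, was at 0.943, 220 and 486 CPM in members against 0.332, 203 and 290 in other barcodes. After the ratio in other barcodes was subtracted, 1 inflammation gene, 0 protease and inhibitor genes and 0 interferon genes were higher, the 1 being Saa3, while 4 inflammation genes (Ccl2, Ptgs2, Slpi and Vcam1), 2 protease and inhibitor genes (Adamts9 and A2m, a gene of the member rule) and 1 interferon gene (Cxcl9) were lower.

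The matrix lists are counted without rule genes, whose level depends on the share each library required. Non-rule matrix genes also rose with the rule-gene share, as given for collagen processing in WT, so these lists are not free of the selection. Summed rule genes stood at 6.81 times the other barcodes in WT members and 3.25 times in KO members. The part of this in the ratios below was not tested. Of 12 tested collagens, 2 were higher in KO members (Col3a1 and Col23a1), with a median log2 ratio of 0.62 in members and 1.39 in other barcodes. Of 8 proteoglycans 5 were higher, and of 19 genes of collagen processing 5, among them Lox and Plod2, a lysyl hydroxylase. Of 15 microfibril genes 5 were higher, among them Ltbp2 and Ltbp1, which stores latent transforming growth factor beta. Of 21 proteases and inhibitors 13 were higher, of 19 genes of fibroblast activation 8, of 17 genes of the transforming growth factor beta pathway 5, and of 17 stromal transcription factors 4. The share of all genes that were higher was 14.8%, and 0 genes of these 8 lists were lower. Median log2 ratios in members were 1.16 for proteoglycans, 0.83 for collagen processing, 0.61 for microfibril and 0.67 for activation genes. In other barcodes they were larger, at 1.69, 1.31, 1.11 and 1.10. Proteases and inhibitors had 1.27 against 1.41, the growth factor pathway 0.57 against 0.88 and transcription factors 0.39 against 0.58. Complement gave 12 higher and 1 lower (Cd59a) of 15, with C3 at 5.83 CPM in WT members and 158 in KO members. Its median log2 ratio was 2.27 in members and 3.39 in other barcodes. After the ratio in other barcodes was subtracted, its genes Serping1, C1ra and C1s1 were lower.

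Library-wide markers moved in KO with these groups: the summed macrophage list was 1444 CPM in KO members against 151 in WT members, and it was 1359 and 90.5 CPM in other barcodes. T cell markers (5 of 5 tested higher) were at 8.83 CPM in WT and 104 in KO members, and plasma cell markers (2 of 3 higher) at 469 and 1469 CPM. Their median log2 ratios, 4.96 and 8.73, were larger than that of the inflammation list, as was that of the macrophage list (8 of 8 higher, 3.21). In WT members only 1 of the 5 plasma cell markers reached 20 UMIs, and Mzb1 had 3. Nearly all of the 469 CPM thus came from 1 gene, and the plasma cell sums do not show the size of the difference. Melanocyte markers (5 of 5 lower) and lens markers (4 of 8 lower) were lower in KO, as given above. The epithelium list summed to 22564 CPM in KO members and 36613 in WT members, with Krt12 the largest part, while 2 of its 10 genes were higher (Krt14 and Cdh1), 1 lower (Krt15) and 7 neither. The part of these differences in the gene groups above was not tested.

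Within KO, Saa3 was spread unevenly over the members. The median member held 795 CPM against 629 in other KO barcodes, and the 95th percentile was 13366 CPM against 4052, while 340 members held no Saa3 UMI. After thinning to 1500 UMIs, Saa3 was found in 68.1% of 1902 members (66.0 to 70.2) and 63.2% of 5000 drawn other barcodes (61.9 to 64.6). At 8000 CPM or more were 177 members, 9.14%, and 1721 other barcodes, 1.64%. These 177 members held 63.4% of the Saa3 UMIs of all members. The boundary of 8000 CPM was chosen after values were seen, 30 members lay between 7000 and 9000 CPM, and the members form a range and not a type.

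In members with at least 8000 CPM of Saa3, other genes of the same group were high as well. Mmp3 was at 8832 CPM in them and at 1359 CPM in members below 1000 CPM of Saa3. Timp1 was at 922 against 49.6 CPM, Mmp12 at 657 against 18.6, Saa1 at 128 against 7.67, Lox at 371 against 75.5 and Lcn2 at 473 against 79.0. The stromal receptor gene Pdgfra was at 108 against 50.4 CPM. Of other genes outside the rule, Sparc (1706 against 1509 CPM) and Thbs4 (251 against 146) were higher too. Igfbp2 (1190 against 1532) was lower, while for Apod (1558 against 1633) and Ntrk2 (99.9 against 109) the intervals overlapped. Levels of rule genes in these members are bound by the selection, with a summed share between 1.60 and 1.68% in every Saa3 range, and are given only as a description. Fbn1 was at 235 against 80.2 CPM, Kera at 389 against 594, Col1a1 at 2984 against 3186 and Angptl7 at 363 against 367. In members Krt12 was at 10897 against 12264 CPM and Ptprc at 128 against 147. In other KO barcodes Kera was at 154 against 144 CPM. Igfbp2 (736 against 624 CPM), Apod (883 against 674) and Ntrk2 (50.7 against 34.9) were higher there. Other KO barcodes with at least 8000 CPM of Saa3 also had higher Mmp3 (4870 against 825 CPM) and Timp1 (621 against 36.8). The same held there for Mmp12 (306 against 20.8), Saa1 (120 against 6.87), Lox (182 against 32.5), Lcn2 (330 against 68.9) and Pdgfra (66.9 against 30.9). These rises were thus not particular to members.

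**Figure D5:**
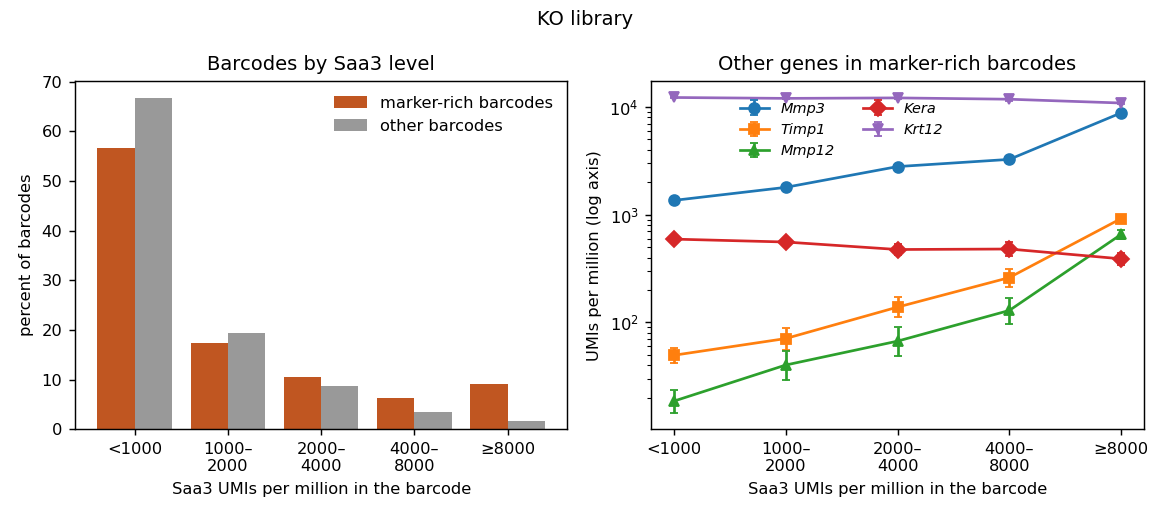
Left, percent of KO barcodes in each range of Saa3 CPM, for marker-rich (orange) and other (grey) barcodes. Right, CPM (log axis, bars are exact 95% Poisson intervals) of 5 genes in the marker-rich barcodes of each range. In the top range 9.14% of marker-rich and 1.64% of other barcodes lie, with Mmp3, Timp1 and Mmp12 highest there. Kera is a rule gene, and its level among marker-rich barcodes is bound by the selection.

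KO_PBS members, compared with KO members, held less of Saa3, Mmp3, Timp1 and Lcn2 and more of Fst, Tnxb and Pi16, on the basis of 180 members. Of 10287 genes, 1173 (11.4%) were higher and 380 (3.69%) lower, with a median log2 ratio of 0.20 (centred on it, 803 higher and 585 lower; with totals that leave out AY036118 and immunoglobulin, mitochondrial and ribosomal protein genes, 945 and 476). Of the higher genes, 712 (60.7%) were at least 2-fold higher in the other barcodes too, and of the lower genes 232 (61.1%) were at least 2-fold lower there. Subtracting the other barcodes left 89 higher and 56 lower genes. Of the genes named by rule for this comparison, Saa3 was among the lower, and Adamtsl3, Ccl21a, Sgsm2 and Tnxb were among the higher. Mmp3, Timp1, Lcn2, Fst, Pi16 and the others named by rule for it were not among them. Of genes given elsewhere, Clec3b, Ebf1, C1qtnf7 and Itgbl1 were among the higher and Ntrk2 among the lower. In other barcodes Mmp3 was at 1068 CPM in KO and 105 in KO_PBS, and Timp1 at 64.3 and 17.6. The lower genes named by rule were Kera (a gene of the member rule, whose required share differed between the libraries, and not lower after the other barcodes were subtracted), Lcn2, Lox, Mmp12, Mmp3, Saa3, Smoc2, Thbs4, Timp1 and Tnc. With stricter member rules that leave 6 or 11 KO_PBS members, Lcn2, Lox, Mmp12, Smoc2, Timp1 and Tnc had at most 1 UMI there. The floor of 3 UMIs thus fixed their sign and no direction can be read. Saa3 also had 1 UMI under both rules, against 3881 and 18656 in KO, and stayed lower at the floor. Thbs4 had 5 UMIs in the 11 members, too few to read a direction from. The higher ones were Adamtsl3, Ccl21a, Fst, Limch1, Pi16, Serpine2, Sgip1, Sgsm2, Smoc1 and Tnxb. With 6 KO_PBS members each of them had at most 2 UMIs, under the floor, so no direction can be read there. With 11 members only Pi16 (14 UMIs), Sgip1 (5) and Tnxb (7) were above the floor. Tnxb (tenascin X, a matrix protein of connective tissue) was at 10.7 CPM in WT members, 11.9 in KO and 99.6 in KO_PBS, against 6.10, 11.1 and 34.3 in other barcodes. Fst (follistatin, an activin inhibitor) was at 15.0 CPM in WT members and 93.8 in KO_PBS members, the latter 8.49 times the level in KO members (32 UMIs in KO_PBS, 67 in KO). Pi16, a marker of adventitial fibroblasts, was at 43.8, 37.6 and 264 CPM, and Serpine2, a protease inhibitor, at 18.0, 29.8 and 170. Ccl21a has near-identical copies, so its value of 85.0 CPM is uncertain.

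By role, fibroblast inflammation gave 1 higher gene (Il33, an alarmin) and 9 lower of 32, with a median log2 ratio of -0.54 in members and -0.58 in other barcodes. Interferon and presentation genes gave 4 higher (H2-Q4, Gbp5, Cxcl9 and Cxcl10) and 1 lower (Gbp6) of 40. Their median was 0.20 in members and 0.17 in other barcodes. Without rule genes, proteases and inhibitors gave 5 higher and 3 lower (Mmp3, Mmp12 and Timp1) of 18, with a median log2 ratio of 0.38, and fibroblast activation gave 8 higher and 3 lower of 19. The 8 higher included Acta2, smooth muscle actin, at 39.3 CPM (WT), 22.3 (KO) and 261 (KO_PBS), with 33.6, 20.3 and 299 in other barcodes, so it was not above the rest of the KO_PBS library. Without rule genes, microfibril genes gave 6 higher and 0 lower of 14, and collagens 5 higher and 0 lower of 12, Col8a2 and Col8a1 with the largest ratios. Markers of a scleral and limbal fibroblast list gave 4 higher of 7, including Clec3b (54.1, 41.7 and 152 CPM) and Myoc (myocilin, 73.9, 80.3 and 234 CPM). Beside these groups, corneal endothelium markers, which include Col8a2, gave 7 higher of 8 (499.8 CPM in KO, 1796 in KO_PBS members). Of 3 tested mural cell markers, Rgs5 and Myh11 were higher and Notch3 lower (Myh11 4.12 and 90.9 CPM, with 141 in other KO_PBS barcodes). Epithelium markers gave 7 lower of 10, and the lens, melanocyte and photoreceptor lists were higher in KO_PBS, as given above. The part of these markers was not tested.

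In KO_PBS members against WT members, 2890 of 11265 genes (25.7%) were higher and 485 (4.31%) lower, with a median log2 ratio of 0.61 in members and 0.68 in other barcodes. Subtracting the median left 1389 higher and 1458 lower genes. Totals without AY036118 and the gene classes named above gave 2358 and 681. Of the higher genes, 2521 (87.2%) were at least 2-fold higher in the other barcodes too. The genes named as higher were Adamts6, C3, Cxcl9, Gbp8, H2-Q4, H2-Q7, Iigp1, Myadm, Myl1 and Plekho2. After the other barcodes were subtracted, the log2 ratios of Cxcl9 and Myl1 changed sign. By the rule of size 40 genes were then still higher, and a kept sign alone does not place a gene among them. Under both stricter member rules Adamts6, Gbp8, H2-Q4, H2-Q7 and Myl1 had at most 2 UMIs in KO_PBS, under the floor. C3 and Iigp1 had 0 UMIs with 6 members. No direction can be read from such counts. Iigp1, an interferon-induced GTPase, was at 5.06 CPM in WT members, 417 in KO and 393 in KO_PBS. Gbp8, H2-Q4 and H2-Q7 belong to families of near-identical genes and are uncertain. Angptl1, Igfbp2, Kera (of the member rule) and Pantr1 were lower. Under the same stricter rules Angptl1 and Pantr1 had at most 2 UMIs in KO_PBS, under the floor. Angptl1, an angiopoietin-like protein, was at 66.0, 48.3 and 2.93 CPM, the last from 1 UMI. Igfbp2, which binds insulin-like growth factors, was at 1727, 1482 and 774 CPM, against 485, 643 and 591.

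In this comparison 34 of 34 tested interferon and presentation genes were higher, with a median log2 ratio of 3.68 in members and 3.53 in other barcodes. Of 38 listed genes of fibroblast inflammation 19 were tested and 12 were higher, with a median of 1.23 against 2.04 in other barcodes. Without rule genes, 12 of 15 microfibril genes and 10 of 12 collagens were higher, and of 17 stromal transcription factors 10. Markers of other cells were higher beside them: 5 of 8 for corneal endothelium (with Col8a2, also counted as a collagen), 4 of 5 vascular, 2 of 3 mural, 6 of 8 scleral and limbal fibroblast and 7 of 7 macrophage markers, while 5 of 10 epithelium markers were lower. Their part was not tested. Ebf1, a stromal transcription factor, was at 20.4 CPM (WT), 65.0 (KO) and 232 (KO_PBS), against 16.4, 70.6 and 87.4. It was among the 40 genes still higher after the ratio in the other barcodes was subtracted.

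The CPM levels of the stromal genes C1qtnf7, Pde7b and Chsy3 can be set beside those in other barcodes. In WT members C1qtnf7 was at 67.9 CPM against 13.1 in other barcodes, Pde7b at 44.8 against 17.3 and Chsy3 at 166 against 50.1. In KO members they were at 44.8, 113 and 226 CPM against 34.9, 99.2 and 147, and in KO_PBS members at 90.9, 152 and 328 CPM, which is 3.63, 2.01 and 2.76 times the other barcodes. With each barcode thinned to 1500 UMIs, the share of KO members with a UMI of Chsy3 was 21.7% (95% interval 19.8% to 23.6%) against 15.9% (14.9% to 16.9%) of other KO barcodes, while the intervals overlapped for Pde7b (13.9% against 13.5%) and C1qtnf7 (5.57% against 4.62%). Unthinned, the KO shares were 35.4% against 28.8% for Chsy3, 24.5% against 23.3% for Pde7b and 11.6% against 9.53% for C1qtnf7. In the other libraries the thinned intervals lay apart for Pde7b and C1qtnf7. In WT the shares were 5.90% against 2.38% for Pde7b and 8.22% against 1.72% for C1qtnf7. In KO_PBS, with 127 members, they were 18.9% (12.5% to 26.8%) against 10.9% (10.1% to 11.8%) and 9.45% (4.98% to 15.9%) against 3.60% (3.10% to 4.15%).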

How the data were processed

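The 3 deposited UMI count matrices, 1 per library, were made with Cell Ranger 7.0.1 and the mm10 build, per the submitters' processing notes. The counts were deposited unnormalized. The annotation release, whether introns were counted and how barcodes were filtered are not given in the sources used here. The KO_PBS matrix lists 31053 genes and the others 32285, so levels use the 30406 gene IDs shared by all.

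Members were found by the rule above, and the members and gene lists were chosen with earlier results of these data known. UMIs were summed over members and scaled to 1000000, with exact Poisson 95% intervals that cover counting error only. The other barcodes are those within the gene and mitochondrial limits that are no members. Named genes were the 15 rule genes and the 12 others with the largest smallest fold over other barcodes. Per comparison and direction, 10 more were named with the largest ratio, at least 50 CPM and 1.5 times the other barcodes in the higher library, and up to 4 examples per list. No doublet caller was run, and 294, 7 and 2 members of WT, KO and KO_PBS exceeded 3 times the median UMIs. Shares of barcodes with a UMI were taken after thinning to 1500 UMIs, which left out 55, 35 and 53 members. The scripts were tested on simulated data. Python 3.11.15, numpy 2.4.6, scipy 1.17.1 and pandas 2.3.3 were used.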

Additional observations from a re-analysis of the deposited data

How the results depend on the processing

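No paired analysis was possible because each group holds 1 library. Member numbers depended on the rule. With at least 10 genes there were 1723 members in WT and 35 in KO_PBS. At 2 times the library share there were 4886 members in KO and 560 members in KO_PBS, and at 3.5 times 392 and 21. With 1 absolute share WT had 589 and KO_PBS 11, and after thinning 1271 and 105.

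Of 12511 genes tested for KO over WT, 8374 had at least 200 UMIs. Of these 1045 were higher and 188 lower, with 18 inflammation genes higher. A fold of 3 gave 833, 114 and 7 proteases and inhibitors higher. Centring gave 843 lower, equal barcodes and UMIs 232 lower of 9408 tested, and 1 absolute share 237 lower of 10699, with 8 proteases. At least 10 genes and 3.5 times gave 1148 higher of 9719 tested, and 18 inflammation genes. After subtracting the other barcodes, 2 were higher and 199 lower, with 1 inflammation, 0 protease and 0 interferon genes higher. The log2 ratio then reversed for Chil1 (-0.31), Lox (-0.73), Mmp3 (-0.61), Serpina3n (-0.023), Steap4 (-0.92) and Tnc (-0.16).

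For KO_PBS over KO (10287 genes tested in the main setting), no UMI minimum gave 2212 higher of 20354 tested. At least 200 UMIs gave 401 higher and 337 lower of 5011. A fold of 3 gave 562 higher, 172 lower and 5 inflammation genes lower. Centring gave 585 lower and 2 interferon genes lower, and at least 1000 genes per barcode also 2. Equal barcodes gave 133 higher and 94 lower of 1152 tested (inflammation 4, proteases 2, interferon 0 lower). At least 10 genes and 3.5 times gave 120 and 43 of 3682 (2, 2 and 0). Subtraction gave 89 and 56 (1, 0 and 0), and 1 absolute share 354 and 63 of 10013 (inflammation 2, interferon 0). For KO_PBS over WT (11265 genes tested in the main setting), at least 200 UMIs gave 1444 higher of 6541. A fold of 3 gave 1789 and 184, centring 1389 and 1458, and subtraction 40 and 217. Equal barcodes gave 199 and 138 of 1052, and 10 genes and 3.5 times 442 and 73 of 8880. With 1 absolute share there were 316 and 94 of 4799. Counts of list genes rest on the genes tested in each setting, whose number per list is not given.

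Subtraction reversed the Kera log2 ratio, KO_PBS over KO (0.0275), the Cxcl9 log2 ratio, KO_PBS over WT (-0.76), and the Myl1 log2 ratio, KO_PBS over WT (-0.00866). With 10 genes and 3.5 times, where KO_PBS keeps 6 members, KO_PBS over KO reversed for Lcn2 (0.81), Lox (0.48), Mmp12 (0.88), Smoc2 (0.80), Thbs4 (0.28), Timp1 (0.10) and Tnc (1.62), and KO_PBS over WT for Angptl1 (1.38) and Pantr1 (1.43). With 1 absolute share, where it keeps 11, it reversed for Lcn2 (0.0541), Lox (0.25), Mmp12 (0.52), Smoc2 (0.62), Thbs4 (0.58) and Tnc (1.03), and for Angptl1 (0.10) and Pantr1 (0.13). In all 9 reversals with 6 members and 7 of 8 with 11, KO_PBS held at most 2 UMIs of the gene, so the floor of 3 UMIs (231 and 141 CPM there) fixed the sign and they show no measured change. The exception is Thbs4 with 11 members, whose 5 UMIs are too few to read a direction from. Other causes were not tested. With all 180 members, 3 UMIs in KO_PBS equal 8.79 CPM.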
